A study of Rattus norvegicus with 15 samples.

Results

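The 26S proteasome genes of the liver were compared between female Wistar rats given fipronil and female Wistar rats given the vehicle. Members were the genes whose name on the array begins with Psma, Psmb, Psmc, Psmd, Psme or Psmf, each read from its brightest probe. By this rule 41 of the 35737 gene names on the array were members, and 40 of them could be tested. Each rat's liver messenger RNA, from fragments of the large lobe, was hybridised to its own 1-colour Agilent array, so that each sample is a separate animal. The treated group of 8 rats was gavaged for 14 days with fipronil, a phenylpyrazole insecticide acting on GABA-gated chloride channels, at a daily dose of 3 mg/kg. The 7 vehicle rats received the same daily gavage without fipronil, a solution of 0.5% methylcellulose and 0.01% Tween 80 in water. All rats were Wistar Crl:WI animals aged 2 to 3 months, and the labels name no genetic change in either group.

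The proteasome is the barrel-shaped protease that degrades proteins tagged with ubiquitin in the cytosol and nucleus. Its 20S core is built from alpha rings, which gate entry, and beta rings, which hold the active sites. The 19S regulatory particle binds ubiquitin, unfolds the substrate with a ring of ATPases and feeds it into the core. In cells exposed to interferon, the catalytic beta subunits Psmb5, Psmb6 and Psmb7 are replaced by Psmb8, Psmb9 and Psmb10, which form the immunoproteasome and favour peptides for MHC class I. The 11S activator made of Psme1 and Psme2 opens the core without ATP. When proteasome activity falls, standard subunit genes are raised together by the transcription factor Nfe2l1 through antioxidant response elements.

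The sequences just upstream of the pair of beta subunit genes with the largest unequal change, Psmb10 and Psmb7, and of the pair Psmb8 and Psmb5 are shown because these genes carry the main contrast below. They are the 250 bases before the annotated start, read 5′ to 3′ on the coding strand, from RefSeq on build GRCr8, and capitals mark matches to the motifs described after them. The windows lie at chr19:50743293-50743542 on the minus strand for Psmb10, chr3:42827471-42827720 on the minus strand for Psmb7, chr20:4657032-4657281 on the minus strand for Psmb8 and chr15:32047380-32047629 on the minus strand for Psmb5.
Psmb10: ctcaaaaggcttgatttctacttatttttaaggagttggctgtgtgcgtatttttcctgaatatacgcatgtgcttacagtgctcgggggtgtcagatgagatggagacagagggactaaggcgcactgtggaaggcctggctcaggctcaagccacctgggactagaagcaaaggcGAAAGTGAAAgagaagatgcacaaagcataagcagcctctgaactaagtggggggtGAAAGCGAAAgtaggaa
Psmb7: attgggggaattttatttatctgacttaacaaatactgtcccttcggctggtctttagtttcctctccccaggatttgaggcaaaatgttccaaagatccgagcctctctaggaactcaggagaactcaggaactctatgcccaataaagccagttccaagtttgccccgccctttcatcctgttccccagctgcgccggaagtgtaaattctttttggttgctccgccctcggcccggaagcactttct
Psmb8: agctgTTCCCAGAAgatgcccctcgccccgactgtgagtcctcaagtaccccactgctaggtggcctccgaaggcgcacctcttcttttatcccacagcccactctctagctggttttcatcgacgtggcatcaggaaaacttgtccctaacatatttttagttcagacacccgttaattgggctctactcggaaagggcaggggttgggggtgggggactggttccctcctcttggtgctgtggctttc
Psmb5: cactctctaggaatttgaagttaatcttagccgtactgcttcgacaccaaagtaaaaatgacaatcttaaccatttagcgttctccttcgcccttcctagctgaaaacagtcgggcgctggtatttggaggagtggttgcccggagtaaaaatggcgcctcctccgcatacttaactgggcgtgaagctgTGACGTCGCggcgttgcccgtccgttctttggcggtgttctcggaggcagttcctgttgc

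Psmb10 held 2 matches to the core of the interferon-stimulated response element (GAAA, any 2 bases, GAAA), with first bases at -73 and -17 from the start. Psmb8 held 1 match to TTCNNNGAA, the interferon gamma activated site, with its first base at -245, and 1 match to the interferon-stimulated element on the other strand, from -4, which spans the start and is only partly in the window printed. Psmb5 held 1 match to TGACNNNGC, the antioxidant response element core, with its first base at -60, and Psmb7 held no match to any of these motifs. Psmb9, the immunoproteasome gene whose sequence is not printed, held no match to any of them either. Each motif was searched on both strands from 250 bases before to 50 after the start, overlaps with another motif allowed, in the 38 members with a RefSeq entry and in 33469 promoters in all. The interferon-stimulated element was found in 6 of 38 members (15.8%) and in 3.92% of all promoters. Besides Psmb8 and Psmb10 these were Psma4, Psmb3, Psmd7 and Psme2. TGACNNNGC was found in 8 of 38 members (21.1%) and in 12.1% of all promoters, and these were Psma3, Psmb2, Psmb5, Psmb6, Psmd1, Psmd3, Psmd9 and Psme4. TTCNNNGAA was found in 4 of 38 members (10.5%), namely Psmb8, Psmc6, Psmd3 and Psmd7, and in 8.87% of all promoters. These matches describe the letters only.

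Signal is the log2 intensity of a probe minus that of its array's 75th percentile, and a difference is the mean signal of fipronil rats minus that of vehicle rats. Fipronil arrays were the brighter ones, with a 75th percentile intensity of 210.9 ± 25.9 (SD, n = 8) against 172.4 ± 34.1 (SD, n = 7) on vehicle arrays (exact permutation p = 0.0218, adjusted p = 0.0267 over 3 measures), and whether this gap bears on the differences below was tested only with brightness as a covariate and with other scalings. The 15 arrays lay on 4 slides, each with rats of both groups. Every member tested was well above background on all 15 arrays and saturated on none. All 10 hepatocyte markers were at the top of the intensity scale, 8 of them saturated on every array, so they give no fold, and all 10 fitted differences were below 0 (median -0.31) on the brighter fipronil arrays. Fipronil rat 6 stood apart from its group in the proteasome genes. The value without it is given below for Psmb7, Psmc3, Psme1 and Psme3, in each of which it was the outlying rat. Other genes moved less: Psmb1 differed by 0.23 with and without it, and Psmb9 by -0.12 with it and -0.15 without it.

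No proteasome gene was called different between fipronil and vehicle rats: 0 of 40 were higher and 0 of 40 were lower at a Benjamini-Hochberg adjusted p under 0.05 in limma. Over all 19931 features tested, 157 (0.788%) were called, 103 of them higher (0.517%) and 54 lower (0.271%). The data bounded the members tightly. For 39 of 40 members the 95% interval of the difference lay within 1.5-fold in either direction, whereas this held for 71.3% of all features. The exception was Psmb10. The median SD within groups was 0.14 log2 for the members and 0.26 for all features. Every member was well above background on all 15 arrays, whereas a feature needed only 7, and the part of signal level in this tightness was not tested.

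Most members lay slightly above 0 all the same. The fitted difference was above 0 for 31 of 40 members (77.5%) and for 44.5% of all features, with a median of 0.06 for the members and -0.03 for all features. At an unadjusted p under 0.05 there were 4 members (10%), of which Psma1, Psmc6 and Psmd13 were higher and Psmb10 was lower, against 17.4% of all features (6.24% higher and 11.1% lower). The other 36 members had adjusted p-values of 0.299 to 0.975. With the array median in place of the 75th percentile, 36 of 40 members (90%) and 57.8% of all features were above 0, so the count of members above 0 moves with the scaling. The share of all features moved too, to 32.1% without the filter on dim probes and 48% with quantile normalization of the processed intensity. Among features well above background on all 15 arrays it was 44.3%. The members' share was 77.5% in each of these, and the part of signal level in the gap was not tested. The lean also differed between slides: fipronil minus vehicle was above 0 for 33 of 40 members on slide 1, 19 on slide 2, 16 on slide 3 and 29 on slide 4. Slide 3 held 1 vehicle rat. The sign was the same on all 4 slides for 11 of 40 members and for 22.2% of all features, which are similar shares. Without slide 1, 26 of 40 members (65%) were above 0, against 44.3% of all features.

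**Figure D1:**
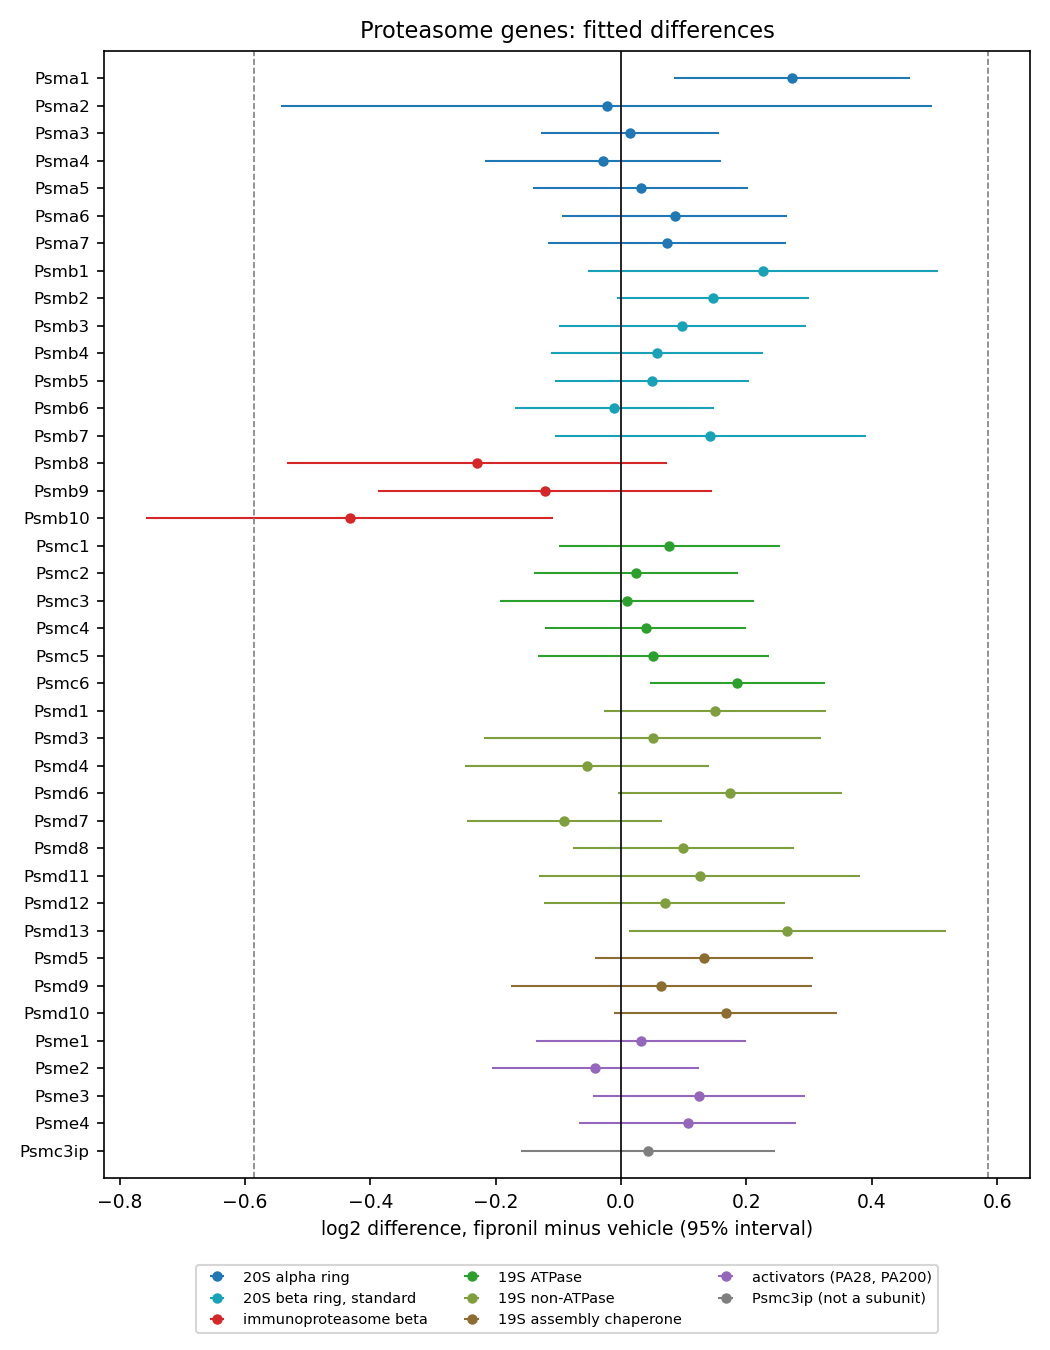
Fitted log2 difference, fipronil minus vehicle, of the 40 proteasome genes tested (x axis) by gene (y axis), with the 95% interval as bars, colours for the subunit class and dashed lines at 1.5-fold in either direction. The 3 immunoproteasome subunits lie left of 0, and Psmb10 is the only gene whose interval crosses a dashed line.

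**Figure D2:**
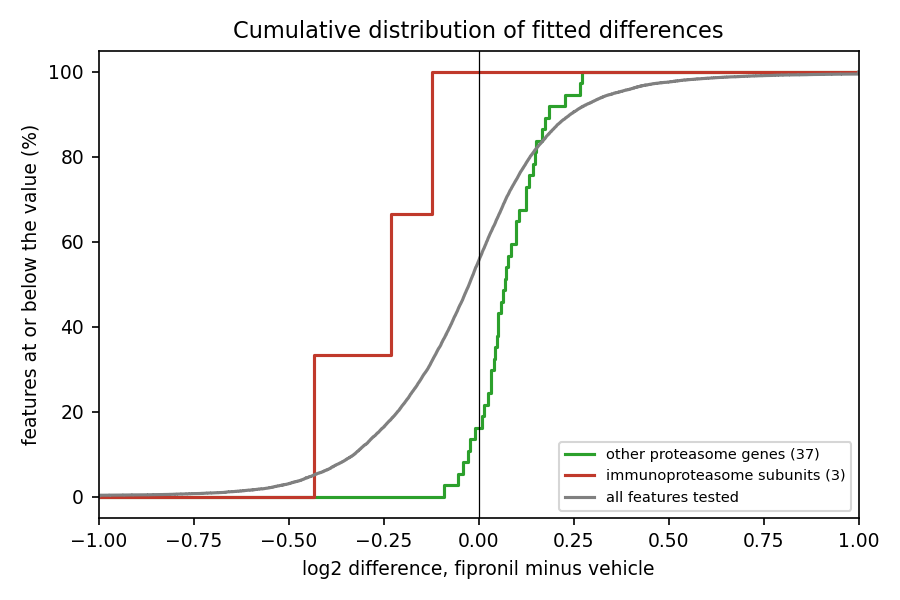
Share of features (y axis, percent) with a log2 difference, fipronil minus vehicle, at or below the value on the x axis, for the 37 other proteasome genes (green), the 3 immunoproteasome subunits (red) and all features tested (grey). The green curve rises more steeply than the grey one and is right of it below 0 and just above, and the red steps lie at -0.43, -0.23 and -0.12.

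The immunoproteasome subunits were the members that lay lowest. All 3 were below 0, with a median of -0.23, whereas the 14 standard 20S subunits had a median of 0.07 with 11 of 14 above 0. Psmb10, the immunoproteasome form of the trypsin-like subunit (probe at chr19:35777711-35777770 on build rn4), had signals of 4.98, 5.30 and 5.80 in fipronil rats (lowest, median and highest) and of 5.37, 5.78 and 6.28 in vehicle rats. The groups overlapped, and 7 of 8 fipronil rats were below the vehicle mean. Fipronil rats averaged 5.35 ± 0.30 (SD, n = 8) and vehicle rats 5.78 ± 0.32 (SD, n = 7), a difference of -0.43 (SE 0.15, 95% interval -0.76 to -0.11, limma adjusted p = 0.177), which is a fold of 0.741. With the slide as a block the difference was -0.49 (SE 0.089, 95% interval -0.69 to -0.30, limma adjusted p = 0.0227), and Psmb10 was then the only member called, beside 176 of 19931 features (0.883%), 70 of them lower (0.351%). Within slides, Psmb10 differed by -0.51 on slide 1, -0.57 on slide 2, -0.52 on slide 3 and -0.38 on slide 4. The slide 3 value rests on 1 vehicle rat, which had the highest Psmb10 signal of all rats, 6.28. Its call therefore depends on whether slide is in the fit. Over 32 alternatives the difference ranged from -0.50 to -0.35 and the adjusted p from 0.0227 to 0.596. With brightness as a covariate the smallest limma adjusted p of any member was 0.483, for Psmc6. The smallest was 0.414 without slide 1, for Psmc6, and 0.447 without slide 4, for Psmb10.

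Psmb8, the immunoproteasome form of the chymotrypsin-like subunit (probe at chr20:4787980-4788039 on build rn4), had signals of 4.95, 5.28 and 5.94 in fipronil rats and of 5.20, 5.49 and 5.83 in vehicle rats. The groups overlapped over most of their range, although 7 of 8 fipronil rats were below the vehicle mean. The difference was -0.23 (SE 0.14, 95% interval -0.53 to 0.07, limma adjusted p = 0.432). Psmb9, the immunoproteasome form of the caspase-like subunit (probe at chr20:4806341-4806400 on build rn4), had signals of 4.81, 5.21 and 5.71 in fipronil rats and of 5.10, 5.34 and 5.61 in vehicle rats. Its groups overlapped too, with 5 of 8 fipronil rats below the vehicle mean and a difference of -0.12 (SE 0.13, 95% interval -0.39 to 0.15, limma adjusted p = 0.668). The Psmb9 difference was -0.06 without fipronil rat 8, -0.08 without fipronil rat 4 or vehicle rat 5, and -0.19 without fipronil rat 5 (limma adjusted p = 0.847, 0.789, 0.801 and 0.407).

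The standard counterparts of these subunits were close to 0 or slightly above it. Psmb5, the chymotrypsin-like subunit, had signals of 5.85, 6.07 and 6.17 in fipronil rats and of 5.78, 6.02 and 6.09 in vehicle rats, a difference of 0.05 (SE 0.07, limma adjusted p = 0.785). Psmb6, the caspase-like subunit, had signals of 4.56, 4.65 and 4.87 in fipronil rats and of 4.45, 4.71 and 4.79 in vehicle rats, a difference of -0.01 (SE 0.07, limma adjusted p = 0.962). Psmb7, the trypsin-like subunit, had signals of 4.21, 4.86 and 5.04 in fipronil rats and of 4.35, 4.73 and 4.85 in vehicle rats, a difference of 0.14 (SE 0.12, limma adjusted p = 0.572). Fipronil and vehicle rats overlapped for each of the 3 genes. The lowest Psmb7 value belonged to fipronil rat 6. The Psmb7 difference was 0.23 without that rat (limma adjusted p = 0.198) and 0.09 without vehicle rat 6 (limma adjusted p = 0.784).

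**Figure D3:**
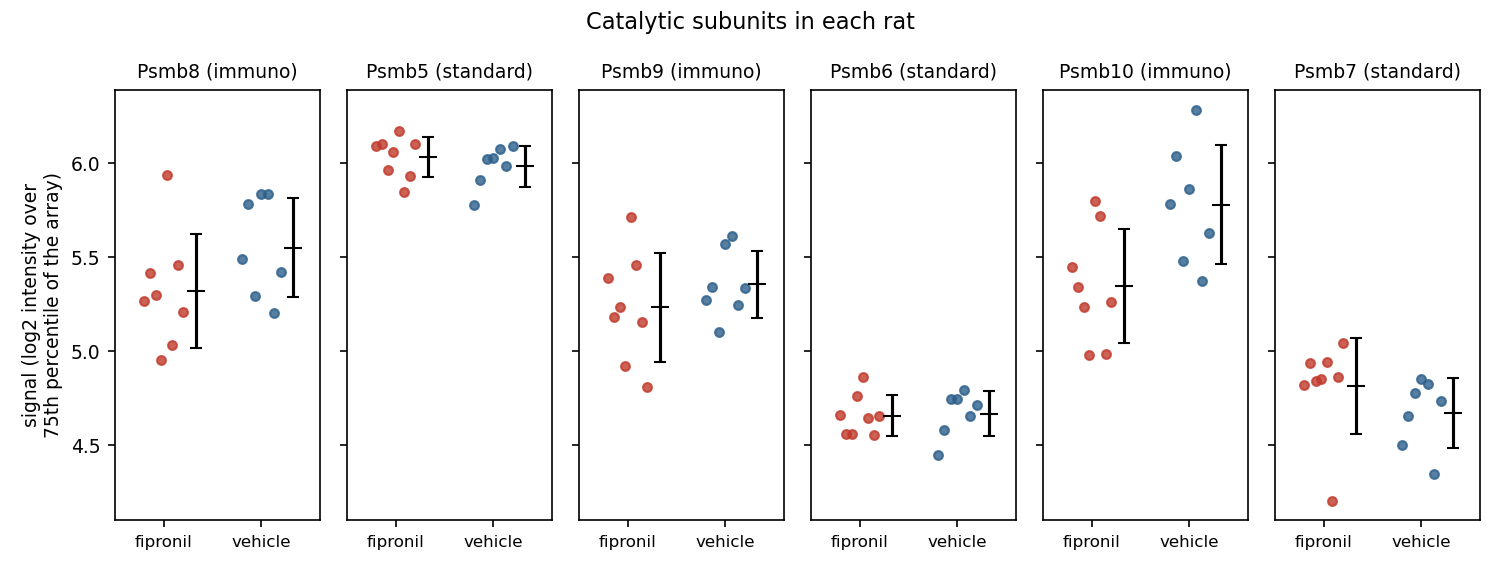
Signal (y axis, log2 intensity over the array's 75th percentile) of the 3 immunoproteasome subunits and their standard counterparts in each rat, fipronil left and vehicle right in each panel, with the mean and SD as black bars (n = 8 and n = 7). Fipronil means are below vehicle means for Psmb8, Psmb9 and Psmb10, the groups overlap in every panel, and levels of different probes are not comparable.

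Whether an immunoproteasome subunit and its standard counterpart changed unequally was asked within each array, for 3 pairs. Psmb10 minus Psmb7 had values of 0.12, 0.40 and 1.51 in fipronil rats (lowest, median and highest) and of 0.70, 1.03 and 1.46 in vehicle rats, and 7 of 8 fipronil rats were below the vehicle mean. Fipronil rats averaged 0.53 ± 0.47 (SD, n = 8) and vehicle rats 1.11 ± 0.27 (SD, n = 7), a difference of -0.58 (two-sided exact permutation p = 0.0177, adjusted p = 0.0531 over the 3 pairs). The fipronil rat at 1.51 was rat 6, where Psmb7 was lowest. With slide as a block in the fit, and relabelling only within slides, the difference was -0.65 (exact permutation p = 0.00463, adjusted p = 0.0139). Fipronil was lower on each of the 4 slides, by values of -0.82, -0.60, -0.27 and -0.79. The slide 3 value rests on 1 vehicle rat, which had the highest pair value of its group, 1.46. The pair passed the threshold also without fipronil rat 5 (-0.62, exact permutation, adjusted p = 0.0358), fipronil rat 6 (-0.72, exact permutation, adjusted p = 0.0035) or vehicle rat 3 (-0.64, exact permutation, adjusted p = 0.0410), whereas over 28 alternatives the adjusted p ran from 0.0035 to 0.364. In 23 of these 28 alternatives the pair did not pass. Psmb8 minus Psmb5 differed by -0.28, with fipronil below the vehicle mean in 7 of 8 rats (exact permutation p = 0.0744, adjusted p = 0.112), and by -0.30 with slide as a block (exact permutation within slides p = 0.0540, adjusted p = 0.0810). Without fipronil rat 5 it differed by -0.35 (exact permutation, adjusted p = 0.0358), whereas over 28 alternatives the adjusted p ran from 0.0358 to 0.529 and 27 did not pass. Within slides this pair differed by -0.55, -0.42, -0.28 and 0.04 on slides 1 to 4. Psmb9 minus Psmb6 differed by -0.11 (exact permutation p = 0.362, adjusted p = 0.362), with 5 of 8 fipronil rats below the vehicle mean.

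**Figure D4:**
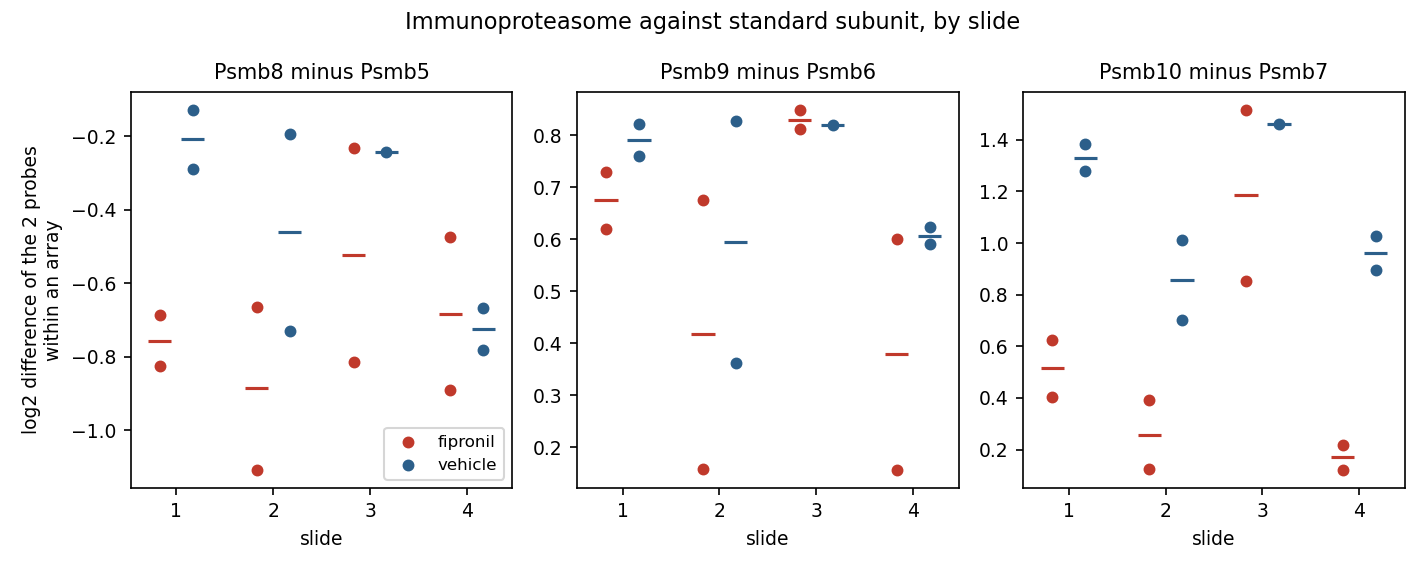
Difference of the 2 probes of a pair within each array (y axis, log2) by slide (x axis), with fipronil rats (red) left of vehicle rats (blue) and bars at the group means of a slide. For Psmb10 minus Psmb7 the fipronil mean is below the vehicle mean on each of the 4 slides, and for Psmb8 minus Psmb5 on slides 1 to 3. Slide 3 has 1 vehicle rat.

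The immunoproteasome subunits varied together among vehicle rats. Psmb8 and Psmb10 had Pearson's r = 0.919 (exact permutation p = 0.00417, adjusted p = 0.050 over 12 relations) and Spearman's rho = 0.964 (exact permutation p = 0.00278, adjusted p = 0.0333) in the 7 vehicle rats, and r = 0.992 without the 2 rats farthest from the median of Psmb8. In the 8 fipronil rats the same pair had r = 0.408 (exact permutation p = 0.324) and rho = 0.286 (exact permutation p = 0.501), and r = -0.828 without the 2 farthest rats, so its positive sign there rests on those rats. Psmb8 and Psmb9 had r = 0.842 (exact permutation p = 0.0125, adjusted p = 0.0581) and rho = 0.929 (exact permutation p = 0.00675, adjusted p = 0.0405) in vehicle rats, and r = 0.626 without the 2 farthest rats. In fipronil rats this pair had r = 0.601 (exact permutation p = 0.112, adjusted p = 0.270) and rho = 0.357 (exact permutation p = 0.389, adjusted p = 0.584), and r = -0.283 without the 2 farthest rats. Psmb9 and Psmb10 had r = 0.806 in fipronil rats (exact permutation p = 0.0145, adjusted p = 0.0581, rho = 0.810 with exact permutation p = 0.0218, adjusted p = 0.0653) and r = 0.776 in vehicle rats (exact permutation p = 0.0405, adjusted p = 0.121, rho = 0.893 with exact permutation p = 0.0123, adjusted p = 0.0492). Without the 2 farthest rats these were r = 0.881 and r = 0.620. No difference between the groups' correlations was tested, and the slides hold too few rats of a group for values within slides.

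Among the alpha-ring subunits, 5 of 7 were above 0 and the median was 0.03. Psma1 had signals of 4.87, 4.92 and 5.04 in fipronil rats and of 4.27, 4.71 and 4.92 in vehicle rats. All 8 fipronil rats were above the vehicle mean, but the highest vehicle rat, rat 3, lay within their range. The difference was 0.27 (SE 0.09, 95% interval 0.08 to 0.46, limma adjusted p = 0.150), the smallest adjusted p of all members. Psma3, Psma5, Psma6 and Psma7 differed by 0.01 to 0.09. Psma4 was the lowest of the ring at -0.03 (SE 0.09, limma adjusted p = 0.908). Psma2 varied most of all members, with an SD of 0.57 in fipronil rats and 0.44 in vehicle rats, and its interval of -0.54 to 0.50 is the widest among the alpha subunits.

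Of the 7 standard beta-ring subunits 6 were above 0, with a median of 0.10. Psmb1, a structural beta subunit without an active site, was highest at 0.23 (SE 0.13, limma adjusted p = 0.396), with signals of 4.29, 4.54 and 4.65 in fipronil rats and of 3.71, 4.43 and 4.68 in vehicle rats. Without vehicle rat 6 the Psmb1 difference was 0.13 (limma adjusted p = 0.643). The fipronil rats lay within the range of the vehicle rats, whose lowest values were far below theirs. Psmb2, Psmb3 and Psmb4 differed by 0.06 to 0.15. Psmb6, described above, was the lowest of the ring.

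The 19S subunits leaned the same way, with 13 of 15 above 0 and a median of 0.07, and 16 of 18 above 0 when the 3 assembly chaperones are counted with them. All 6 ATPases were above 0, although 5 of them had differences of 0.01 to 0.08. Psmc6, an ATPase of the unfolding ring, had signals of 4.64, 4.71 and 4.88 in fipronil rats and of 4.41, 4.55 and 4.63 in vehicle rats. It was the 1 member whose groups did not overlap, against 0.587% of all features. Its difference was 0.19 (SE 0.07, 95% interval 0.05 to 0.33, limma adjusted p = 0.178), and its second probe differed by 0.29 (SE 0.10, limma adjusted p = 0.182 with every probe tested). Psmc3, another ATPase of the ring, was lowest at 0.01 (SE 0.10, limma adjusted p = 0.974), and at 0.07 without fipronil rat 6.

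Of the 9 non-ATPase subunits 7 were above 0. Psmd13, a lid subunit, had signals of 1.50, 1.92 and 2.25 in fipronil rats and of 1.20, 1.67 and 1.90 in vehicle rats. The groups overlapped, with 7 of 8 fipronil rats above the vehicle mean and a difference of 0.27 (SE 0.12, 95% interval 0.01 to 0.52, limma adjusted p = 0.266). Its difference was 0.81 on slide 4 and between 0.06 and 0.12 on the other slides. Psmd7, which pairs with the deubiquitinase of the lid, was lowest at -0.09 (SE 0.07, limma adjusted p = 0.564). Its other probes differed by -0.06 and 0.05 (limma adjusted p = 0.704 and 0.784 with every probe tested). Psmd1, the base scaffold that holds ubiquitin receptors, differed by 0.15 on its brightest probe and by 0.27 (SE 0.08, limma adjusted p = 0.116 with every probe tested) on its second probe. Psmd3, Psmd4, Psmd6, Psmd8, Psmd11 and Psmd12 differed by -0.05 to 0.17. Psmd2, the other scaffold of the base, was not tested on its brightest probe because outlier spots left 7 arrays without a value, 4 of fipronil and 3 of vehicle rats, and its second probe differed by 0.04 (SE 0.11, limma adjusted p = 0.893 with every probe tested).

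The 3 chaperones that assemble the 19S base were all above 0. Psmd10, also known as gankyrin, had signals of 1.89, 2.21 and 2.32 in fipronil rats and of 1.81, 2.04 and 2.18 in vehicle rats, a difference of 0.17 (SE 0.08, limma adjusted p = 0.321). Psmd5 differed by 0.13 and Psmd9 by 0.06 (SE 0.11, limma adjusted p = 0.822). None of the 3 passed the threshold, and the groups overlapped for each.

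Of the 4 activator genes 3 were above 0, with a median of 0.07. Psme1, PA28 alpha, had signals of 4.93, 5.28 and 5.39 in fipronil rats and of 5.06, 5.20 and 5.35 in vehicle rats, a difference of 0.03 (SE 0.08, 95% interval -0.14 to 0.20, limma adjusted p = 0.878), and of 0.08 without fipronil rat 6 (limma adjusted p = 0.592). Psme2, PA28 beta, had signals of 5.03, 5.26 and 5.45 in fipronil rats and of 5.16, 5.29 and 5.43 in vehicle rats, a difference of -0.04 (SE 0.08, 95% interval -0.21 to 0.12, limma adjusted p = 0.836). These partners of the immunoproteasome are likewise interferon-induced, and neither differed beyond the spread between rats. Psme3, the nuclear PA28 gamma, was highest at 0.12 (SE 0.08, limma adjusted p = 0.448; 0.08 without fipronil rat 6), and Psme4, the activator PA200, differed by 0.11. Psmc3ip falls under the name rule but encodes a recombination protein that binds Psmc3 and is no proteasome subunit, and it differed by 0.04 (SE 0.10, limma adjusted p = 0.864). No probe carried the name Psmf1. A probe described as the inhibitor PI31, which Psmf1 encodes, differed by 0.05 (SE 0.07, limma adjusted p = 0.759).

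**Figure D5:**
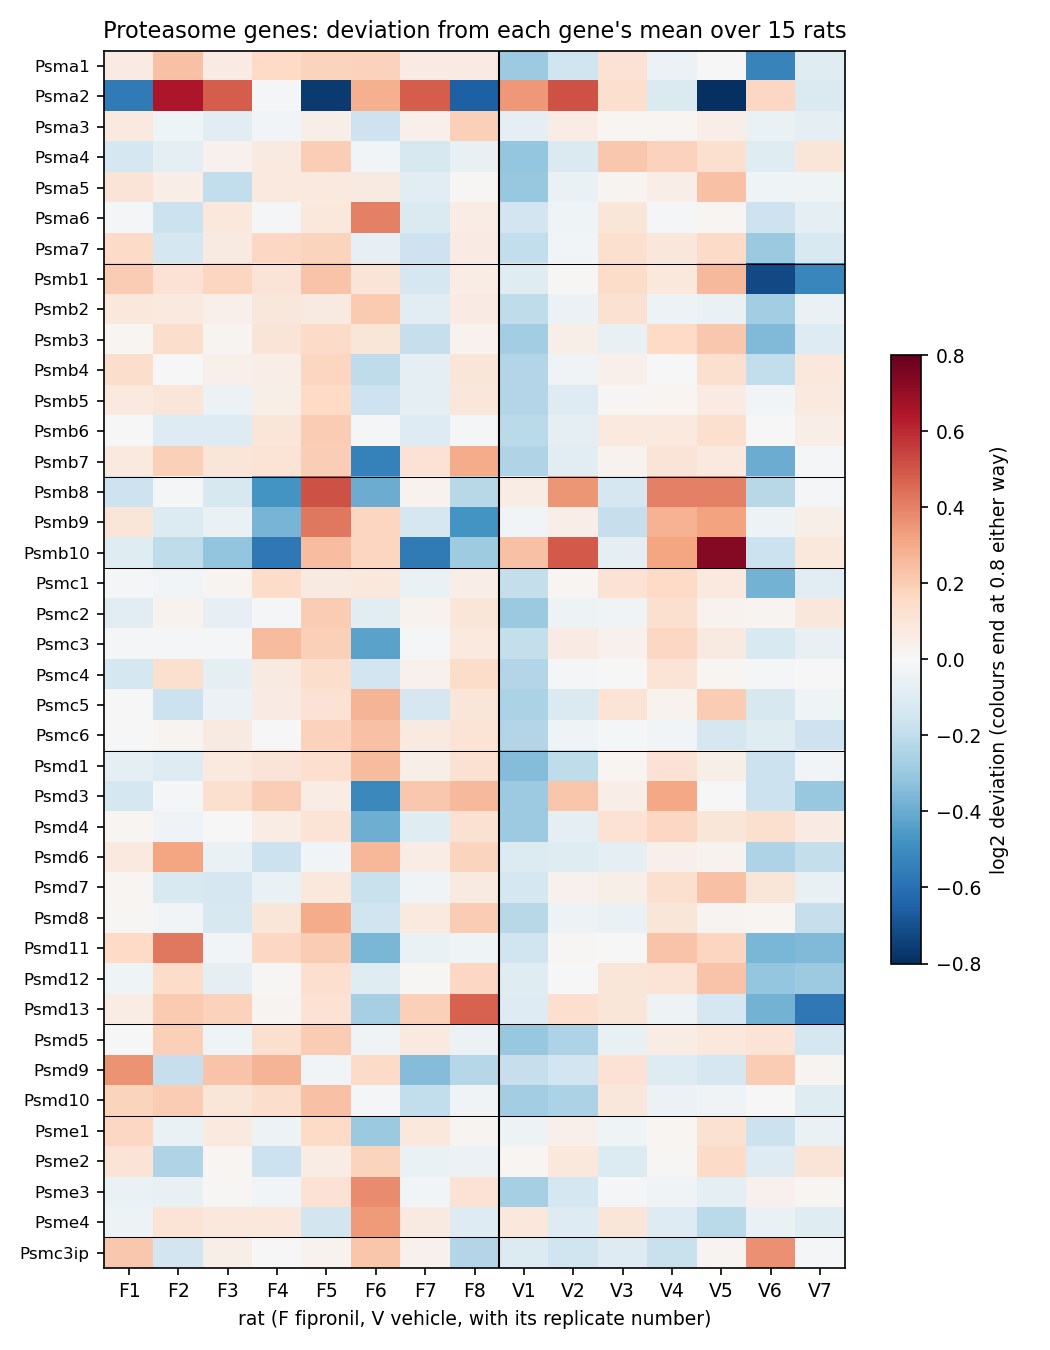
Deviation of each proteasome gene (rows, by class) from its own mean over the 15 rats (log2, colour), in fipronil rats (F1 to F8, left of the line) and vehicle rats (V1 to V7, right). The immunoproteasome rows are mostly blue in fipronil rats, but red in F5 and, for Psmb9 and Psmb10, in F6, and several genes of other classes deviate in F6, V1 and V6.

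Genes that assist the proteasome showed no call either. Among assembly and associated factors, 0 of 9 tested were called and 6 were above 0 (median 0.04). Psmg2, an alpha-ring assembly chaperone, differed by 0.20 (SE 0.10, limma adjusted p = 0.322) and Adrm1, a ubiquitin receptor of the 19S particle, by 0.20 (SE 0.18, limma adjusted p = 0.628). Of 8 regulators of proteasome genes, 0 were called and 7 were below 0 (median -0.06). Hsf1, the heat shock transcription factor, differed by -0.18 (SE 0.08, limma adjusted p = 0.232) and Mafg, a small MAF partner of Nfe2l1, by 0.17 (SE 0.08, limma adjusted p = 0.311).

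Of 20 genes for ubiquitin and substrate delivery, 0 were called and 10 were above 0 (median 0.00). Ufd1, listed on the array as Ufd1l and a cofactor that hands substrates of the Vcp unfoldase on, differed by 0.21 (SE 0.07, limma adjusted p = 0.168). Of these genes 2 were saturated on every array and give no fold, and the other 18 had a median of 0.02. Of 13 genes of lysosome and autophagy, the other main route of protein breakdown, 0 were called and 7 were above 0 (median 0.02). Map1lc3a differed by -0.20 (SE 0.11, limma adjusted p = 0.369) and Gabarapl1, listed as MGC125167, by 0.18 (SE 0.11, limma adjusted p = 0.411), both being autophagosome proteins.

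Genes of antigen processing and the interferon response, which immunoproteasome subunits serve, held no call. Of 23 tested, 0 were called, 11 were above 0 and 12 below (median -0.01). B2m, the light chain of MHC class I, differed by -0.32 (limma adjusted p = 0.199), but it was saturated on every array and gives no fold. Cxcl9, a chemokine induced by interferon gamma, had signals of -1.03, -0.11 and 1.24 in fipronil rats and of -1.14, -0.36 and 0.04 in vehicle rats, a difference of 0.64 (SE 0.29, limma adjusted p = 0.274). Gbp5, Mx1, Ifit3 and C2ta (the gene of the class II transactivator) did not reach the background limit for testing.

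Immunoproteasome subunits are abundant in immune cells, so leukocyte markers were measured beside them. In these bulk samples fewer cells of a type and less RNA per cell cannot be told apart. All 5 general leukocyte markers were above 0 (median 0.22, 0 called), and their summed level (log2 of the summed intensity over the array's 75th percentile) ran from 4.48 to 5.63 in fipronil rats and from 4.12 to 5.45 in vehicle rats. Of 7 T and NK cell markers tested, 4 were above 0 and 0 were called (median 0.32), with a summed level of 0.89 to 1.71 in fipronil rats and of 0.66 to 1.58 in vehicle rats. Cd3e, Cd8a, Cd4, Cd2 and Cd5, which define T cells, did not reach the background limit. Of 10 Kupffer cell and macrophage markers 9 were above 0 and 0 were called (median 0.16), with a summed level of 6.95 to 8.01 in fipronil rats and of 6.45 to 8.22 in vehicle rats. Of the B cell markers, Blnk alone reached the limit and differed by -0.29 (SE 0.28, limma adjusted p = 0.646), while Cd79b and Ms4a1 did not. The part of these cells in the Psmb10 difference was not tested.

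No marker of the remaining liver cell types was called. Of 6 endothelial markers 4 were above 0 (median 0.25), led by the sinusoidal scavenger receptor Stab2 at 0.42 (SE 0.12, limma adjusted p = 0.104) and Lyve1, listed as Xlkd1, at 0.52 (SE 0.17, limma adjusted p = 0.148). The lowest endothelial marker was at -0.24. Of 7 stellate cell and fibroblast markers 4 were above 0 (median 0.04), of 5 cholangiocyte markers 2 (median -0.08) and of 2 erythroid markers 0 (median -0.09). Epcam, an adhesion protein of bile duct cells listed as Tacstd1, differed by 0.51 (SE 0.16, limma adjusted p = 0.128), whereas the cholangiocyte marker Cftr differed by -0.08 (SE 0.13, limma adjusted p = 0.792).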

How the data were processed

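Liver RNA of 15 rats was measured on 15 arrays, 1 per rat, grouped by the treatment in the labels. The deposited array files give spot intensity from Agilent Feature Extraction 9.5.3.1, with background subtraction and detrending but no scaling across arrays, per the file headers. The deposited series table holds log2 values of 22244 probes, made with limma and Feature Extraction 9.5 per the submitters' processing notes, and served as an alternative. The deposited files also carry 0 or 1 flags per spot, per the file headers.

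Outlier spots were left out, spots of a probe averaged, and log2 processed intensity was set against the 75th percentile of non-control probes of its array. The brightest probe stood for a gene name. A feature was tested if 7 or more arrays were well above background and at most 3 lacked a value. Testing used lmFit and eBayes of limma 3.58.1 under R 4.3.3, two-sided and without covariates, and p-values were adjusted by Benjamini-Hochberg over all 19931 features. Pairs within an array were tested by exact permutation of the 6435 groupings. With slide as a block, slide was a covariate and the 648 groupings within slides were used. SE and 95% intervals come from the fit. The number of arrays limits the precision. The limma step was tested on simulated data.

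Per the file headers, probe positions are on build rn4. Exons under probes are not given because that genome was not used here. Promoters came from RefSeq on GRCr8, matched by symbol for 38 of 41 members.

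Named genes were the subunits Psmb5 to Psmb10, Psme1, Psme2, the highest and lowest difference of each subunit class, members whose groups did not overlap, and the 2 smallest p-values of each list, of which some are not reported here. Values of other members were added after their values were seen. Lists covered assembly factors, regulators, ubiquitin and substrate delivery, antigen processing and interferon response, lysosome and autophagy, and markers of liver cell types. Members and lists were chosen with earlier results of these data known. Alternatives changed the background correction, scaling, filters, probe rule, covariates and the arrays used.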

Additional observations from a re-analysis of the deposited data

Results flagged for a closer look

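Of 92 groups of values examined for 1 sample far from the rest of its group, 12 had one, and chance alone gives about 1 group in 20. Fipronil rat 6 accounts for 6 of them: it was highest for Psma6 (7.57, next 7.26) and Psme3 (3.71, next 3.45), and lowest for Psmb7 (4.21, next 4.82), Psmc3 (4.85, next 5.26), Psmd4 (5.16, next 5.45) and Psme1 (4.93, next 5.18). It was set apart in this way for 15% of the 40 proteasome genes and for 3.73% of all features, and its members had the largest median absolute deviation from the group mean of any array, 0.185. Without it no member was called.

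Fipronil rat 7 was lowest for Psmb1 (4.29, next 4.49) and Psmb3 (5.64, next 5.84). Vehicle rat 1 was lowest for Psmc2 (5.70, next 5.95) and Psmc4 (3.42, next 3.64). Vehicle rat 6 was highest for Psmc3ip (0.22, next -0.12). Fipronil rat 2 had the brightest array, with a 75th percentile intensity of 270.9, next 217.2.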

How the results depend on the processing

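No member was called higher under any of 33 alternatives, and 1 was called lower under 1 of them, Psmb10 with slide as a block. The medians of all members, the standard 20S subunits, the 19S genes with their chaperones, the activators and the immunoproteasome subunits kept their sign under every alternative that gave them, between 0.036 and 0.126 for all members and between -0.33 and -0.16 for the immunoproteasome subunits. Psmb10 minus Psmb7 passed the threshold at -0.65 with slide as a block and at -0.73 without slide 3, and ran from -0.72 to -0.52 when 1 rat was left out. Psmb8 minus Psmb5 ran from -0.35 to -0.22 when 1 rat was left out. The number of features called was 81 without the filter on dim probes, 87 with the replicate block, 40 with array brightness as a covariate, 31 without slide 1 and 49 without slide 4. It ran from 80 to 252 when 1 rat was left out: 104 without fipronil rat 1, 96 without fipronil rat 7, 80 without fipronil rat 8, 100 without vehicle rat 1, 86 without vehicle rat 2, 252 without vehicle rat 3 and 90 without vehicle rat 7. Leaving out rats leaves fewer samples, and the cause was otherwise not tested. The calls were 65.6% higher as reported, 79.5% with the array median (163 higher and 42 lower) and 82.5% with brightness as a covariate (33 higher and 7 lower). Small differences changed sign, with the cause not tested. Psma4 was 0.013 with normexp, 0.028 with median intensity and quantile normalization, 0.046 in the authors' deposited table, 0.036 with the array median, 0.029 with brightness as a covariate, 0.023 without slide 2, and -0.083 to 0.0046 when 1 rat was left out. Psmb6 was 0.054 with the array median, 0.0026 with array weights, 0.053 with brightness, 0.019 without slide 2, 0.013 without slide 4, and -0.048 to 0.0098 when 1 rat was left out. Psme2 was 0.024 with the array median and 0.041 with brightness. Psmc3 was -0.0013 with the replicate block, -0.0069 without slide 1, -0.034 without slide 4, and -0.027 to 0.071 when 1 rat was left out. Psmb5 was -0.029 and Psmd9 -0.0089 without slide 1, and Psme1 was -0.019 without slide 4.

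Replicate numbers were tested as a block because both groups carry them. Deviations of same-numbered rats correlated from -0.04 to 0.37, 3 of 7 being best matched by their own number. The numbers were not taken as pairs in the fit reported above. The matches were numbers 1, 2 and 3, whose same-numbered rats share a slide. Those of numbers 4, 5 and 7 share a slide as well and were not best matched. As number and slide go together for all numbers but 6, this check cannot fully tell numbering from slide. In the fit with the replicate block 87 features were called and Psmb10 differed by -0.42. Psmb10 minus Psmb7 differed by -0.53 there (exact permutation, adjusted p = 0.141). The number of rats limits the precision, with SEs of 0.066 to 0.245 for the members.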

Other observations

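Some probes outside the name rule are described in the array files as proteasome genes or as similar to one. Of 13 such probes 10 were tested, 0 were called and 7 were above 0, with differences from -0.30 to 0.16 and adjusted p-values in limma of 0.260 to 0.990. The lowest was a probe described as similar to proteasome subunit RC6-1, at -0.30 (SE 0.13, limma unadjusted p = 0.0363, adjusted p = 0.260). Among those not tested were Psma8, an alpha subunit known from testis, and Psmb11, the catalytic subunit of the thymus proteasome, named through RefSeq. Both were well above background on 0 of 15 arrays.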
